A study of Mus musculus with 16 samples.

Results

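Bmp4, the 4 inhibitor of DNA binding genes Id1, Id2, Id3 and Id4, and the inhibitory Smad genes Smad6 and Smad7 were followed across 16 mouse gene expression arrays. These 7 genes were taken by name, as all 10 probes, of 41174 on the array, whose gene name is one of the 7, and the array gives its probes 28095 names in all. Bmp4 encodes a secreted ligand of the bone morphogenetic protein (BMP) family. Such ligands bind paired type I and type II receptors on the cell surface, which phosphorylate Smad1, Smad5 and Smad9. These then enter the nucleus with Smad4 and raise the transcription of target genes, the Id genes among the best known. Id proteins have no DNA-binding region of their own and hold E proteins, which are transcription factors of differentiation, in inactive pairs. Smad6 and Smad7 are induced by the same signal and block it at the receptor. In mouse embryonic stem (ES) cells grown with the cytokine LIF, BMP4 and the Id genes are known to help keep cells from differentiating. The arrays measured RNA only, so neither secreted BMP4 nor phosphorylated Smads were measured.

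The study made induced pluripotent stem (iPS) cells with a human artificial chromosome (HAC) that carries reprogramming genes and can be lost again. The vector iHAC1 holds 2 copies each of Klf4, c-Myc, Sox2 and Oct4 driven by the CAG promoter, and iHAC2 holds in addition 2 copies of Oct4 and a short hairpin RNA against p53. By the study's protocol, fibroblasts that received either vector were also treated with mimics of the microRNAs miR-294 and miR-295. The groups were mouse embryonic fibroblasts (MEFs, 1 array, C57BL/6-J embryos), the ES lines B6ES (C57BL/6) and TT2 (C57BL/6 x CBA), the iPS line 20D17 made with retroviruses (1 array, C57BL/6 x DBA), 4 iHAC1-iPS clones (1-A3, 1-B, 1-C3, 1-D6), 4 iHAC2-iPS clones and 4 iHAC-free lines of iPS cells. Each iHAC-free line is a subclone that had lost iHAC2, with F-B1 derived from clone 2-B1, F-C5 from 2-C6, F-E4 from 2-E and F-N7 from 2-N. Each array is therefore 1 clone or line, and the spread within a group is that between clones. ES and iPS cells were grown on feeder layers of MEFs, in serum and LIF, so that feeder RNA can be part of every sample but the MEFs.

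Levels are log2 signals relative to the 75th percentile of the array, so that 0 is the level of that percentile and a step of 1 is a change of 2-fold. Groups were compared in 1 limma fit of all arrays, and a probe was called when its adjusted p was under 0.05 and its difference at least 2-fold. On each array 54.2% to 65.8% of spots were well above background, and so were all 10 probes of the 7 genes on all 16 arrays. The iHAC2-iPS clones and iHAC-free lines shared slides 3 and 4, read with another version of the extraction software, and all other arrays were on slides 1 and 2. Slide, software version and group therefore cannot be told apart in any comparison of the former with ES or with iHAC1-iPS cells. Slide 1 held MEFs, 1-A3, 1-B and 1-C3, and slide 2 held both ES lines, 20D17 and 1-D6. For 1-A3, 1-B and 1-C3 slide and group cannot be told apart in the comparison with ES cells. With the slide as a block, iHAC1-iPS against ES cells therefore rests on 1-D6 alone. The labelled cell types were set against markers, as the mean log2 level over a list. Over 11 of 12 pluripotency genes (no probe is named Nanog), it lay between 3.43 and 3.57 in ES cells, between 3.17 and 3.29 in iHAC-free lines, between 1.45 and 3.62 in iHAC2-iPS clones, between -2.34 and -0.07 in iHAC1-iPS clones, at 2.97 in 20D17 and at -4.85 in MEFs. Between iHAC1-iPS and ES cells 8 of the 11 were called lower and 1, Pou5f1, was called higher. Both vectors carry Pou5f1 (as Oct4) and also Sox2, which was among those called lower (log2 difference -2.49, limma's adjusted p = 0.014). The mean over the list includes both genes. The clones labelled iHAC1-iPS thus lay apart from ES cells in most of these markers. Over 20 fibroblast genes, the mean was 3.65 in MEFs, 0.65 to 1.99 in ES cells, 2.33 to 3.29 in iHAC1-iPS clones, 1.15 to 2.74 in iHAC2-iPS clones and 1.96 to 2.67 in iHAC-free lines, and all 20 were well above background on every array. Of 8 trophectoderm genes 5 were called lower in iHAC1-iPS clones than in ES cells, of 7 primitive endoderm genes tested 1 was called lower, and of 7 early mesoderm genes 0 were called by limma, with 1 at an unadjusted p under 0.05. In this comparison 7.41% of all probes tested were called lower and 6.86% higher. The marker counts were not tested against these shares.

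The promoters of 5 of the genes were available, in RefSeq's mouse build GRCm38.p6, as 250 bases before to 50 bases after the start of the gene. They are shown because Smad proteins are known to act on Id and Smad6 promoters through short elements, here in capitals. The letters searched on both strands were GGCGCC, a GC-rich element bound by Smad1 and Smad5, and CAGAC, bound by Smad4. The palindrome GTCTAGAC, also a Smad element, was added after the Smad6 window had been read. The windows are chr12:25096043-25096342 (minus strand) for Id2, chr4:136143572-136143871 (plus strand) for Id3, chr13:48260866-48261165 (plus strand) for Id4, chr9:64022010-64022309 (minus strand) for Smad6 and chr14:46390620-46390919 (minus strand) for Bmp4.
Id2: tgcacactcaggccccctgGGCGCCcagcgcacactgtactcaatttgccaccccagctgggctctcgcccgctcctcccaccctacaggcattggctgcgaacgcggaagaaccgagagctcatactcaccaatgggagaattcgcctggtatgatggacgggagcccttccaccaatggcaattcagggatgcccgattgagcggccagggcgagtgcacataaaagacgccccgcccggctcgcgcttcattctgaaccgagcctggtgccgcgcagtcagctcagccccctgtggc
Id3: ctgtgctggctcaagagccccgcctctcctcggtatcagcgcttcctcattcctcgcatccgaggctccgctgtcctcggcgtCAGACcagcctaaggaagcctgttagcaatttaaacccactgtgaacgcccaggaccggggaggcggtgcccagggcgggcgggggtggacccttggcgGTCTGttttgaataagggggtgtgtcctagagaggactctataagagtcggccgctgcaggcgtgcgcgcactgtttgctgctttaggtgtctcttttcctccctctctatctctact
Id4: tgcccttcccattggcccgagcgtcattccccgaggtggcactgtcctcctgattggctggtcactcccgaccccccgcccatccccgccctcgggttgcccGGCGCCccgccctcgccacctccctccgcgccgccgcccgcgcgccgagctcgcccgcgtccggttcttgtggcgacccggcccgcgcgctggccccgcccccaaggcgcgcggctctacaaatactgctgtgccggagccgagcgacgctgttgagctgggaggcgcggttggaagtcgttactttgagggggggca
Smad6: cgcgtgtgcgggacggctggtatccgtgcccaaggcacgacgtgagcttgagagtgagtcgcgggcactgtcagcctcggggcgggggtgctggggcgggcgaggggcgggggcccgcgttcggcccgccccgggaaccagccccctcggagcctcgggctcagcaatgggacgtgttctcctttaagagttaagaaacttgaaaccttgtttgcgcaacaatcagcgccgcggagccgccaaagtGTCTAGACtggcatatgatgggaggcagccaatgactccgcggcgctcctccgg
Bmp4: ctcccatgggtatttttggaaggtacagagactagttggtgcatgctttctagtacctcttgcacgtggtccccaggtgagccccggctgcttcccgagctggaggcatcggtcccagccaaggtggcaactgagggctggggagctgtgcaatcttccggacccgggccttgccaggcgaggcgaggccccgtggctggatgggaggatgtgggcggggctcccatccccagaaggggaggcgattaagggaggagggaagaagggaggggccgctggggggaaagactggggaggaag
GGCGCC was found once in Id2, beginning 231 bases before the start, and once in Id4, beginning 148 bases before it. It lies in 11.9% of the 32851 promoter windows of this length. CAGAC was found only in Id3 among these 5, as CAGAC 167 bases and as GTCTG 68 bases before the start. These 5 letters are common, with 49.6% of all windows holding them. Smad6 held GTCTAGAC, beginning 4 bases before the start, which 0.213% of windows hold. Since this element was added after the window had been read, that share does not measure how unusual the match is. The Bmp4 window held none of the searched elements. The windows of Id1 and Smad7 are not shown. A match is only a run of letters, and no binding was measured here.

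Bmp4 had the largest differences between groups among the 7 genes. It was low in all iHAC1-iPS clones, low in 3 of the 4 iHAC2-iPS clones, and in the iHAC-free lines it was at the level of ES cells. Its probe (A_51_P383741, chromosome 14 of mm9, 47003802 to 47003861) has 10 spots on the array, whose SD within an array was at most 0.20. The log2 level was 0.92 in MEFs, 0.41 in 20D17, -0.70 in B6ES and -1.06 in TT2. In the iHAC1-iPS clones it was -4.03 in 1-A3, -3.87 in 1-B, -3.70 in 1-C3 and -4.25 in 1-D6. All 4 lay below every other array. In the iHAC2-iPS clones it was -2.86 in 2-B1, -2.96 in 2-C6, -3.20 in 2-E and -0.06 in 2-N. Clone 2-N stood apart and lay above both ES lines. In the iHAC-free lines it was -1.0 in F-B1, -0.49 in F-C5, -0.95 in F-E4 and -0.89 in F-N7, a range that overlaps that of ES cells.

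In iHAC1-iPS cells Bmp4 was 8.47-fold lower than in ES cells (log2 difference -3.08, SE 0.67, limma's adjusted p = 0.00743) and 8.73-fold lower than in iHAC-free lines (log2 difference -3.13, SE 0.54, limma's adjusted p = 0.00107). Against iHAC2-iPS cells it was 3.23-fold lower (log2 difference -1.69, SE 0.54, limma's adjusted p = 0.0288). This last call was lost in 5 of the alternatives, and without 2-N the log2 difference was -0.95 (limma's adjusted p = 0.00343), under 2-fold. The call against ES cells was lost without B6ES (log2 difference -2.90, limma's adjusted p = 0.0788). On slide 2, which held both ES lines and 1-D6, the log2 difference was -3.37 (limma's adjusted p = 0.0562 with the slide as a block). The call against iHAC-free lines was kept when any 1 array was left out. The size of these differences depended on the processing. With all arrays kept, other settings gave log2 differences from -3.37 to -1.83 against ES cells. They gave -3.13 to -1.86 against iHAC-free lines and -1.69 to -0.94 against iHAC2-iPS cells. Before scaling, the Bmp4 signal was 26.5 to 42 in the iHAC1-iPS clones, 296.9 in B6ES and 261.9 in TT2.

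The log2 difference of Bmp4 in iHAC2-iPS clones was -1.39 from ES cells (SE 0.67, limma's adjusted p = 0.177), and from iHAC-free lines it was -1.44 (SE 0.54, limma's adjusted p = 0.198). Neither was called. Both rest on 2-N: without it they were -2.13 (limma's adjusted p = 0.000573) and -2.17 (limma's adjusted p = 0.000195), and both were called lower. Clone 2-N is singled out here by its own Bmp4 level, so these p-values are no separate support for a difference. The mean of the pluripotency genes was 3.62 in 2-N and 1.92 in 2-B1, 2.22 in 2-C6 and 1.45 in 2-E, so that 2-N was the iHAC2-iPS clone highest in these genes as well. The fibroblast genes had a mean of 1.15 in 2-N and between 1.83 and 2.74 in the other iHAC2-iPS clones. Their part in the Bmp4 level was not tested. Between iHAC-free iPS and ES cells the log2 difference was 0.05, with a 95% interval from -1.40 to 1.49, which includes differences of 2-fold in either direction. In these bulk samples, fewer cells of a type and less RNA per cell cannot be told apart.

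**Figure D1:**
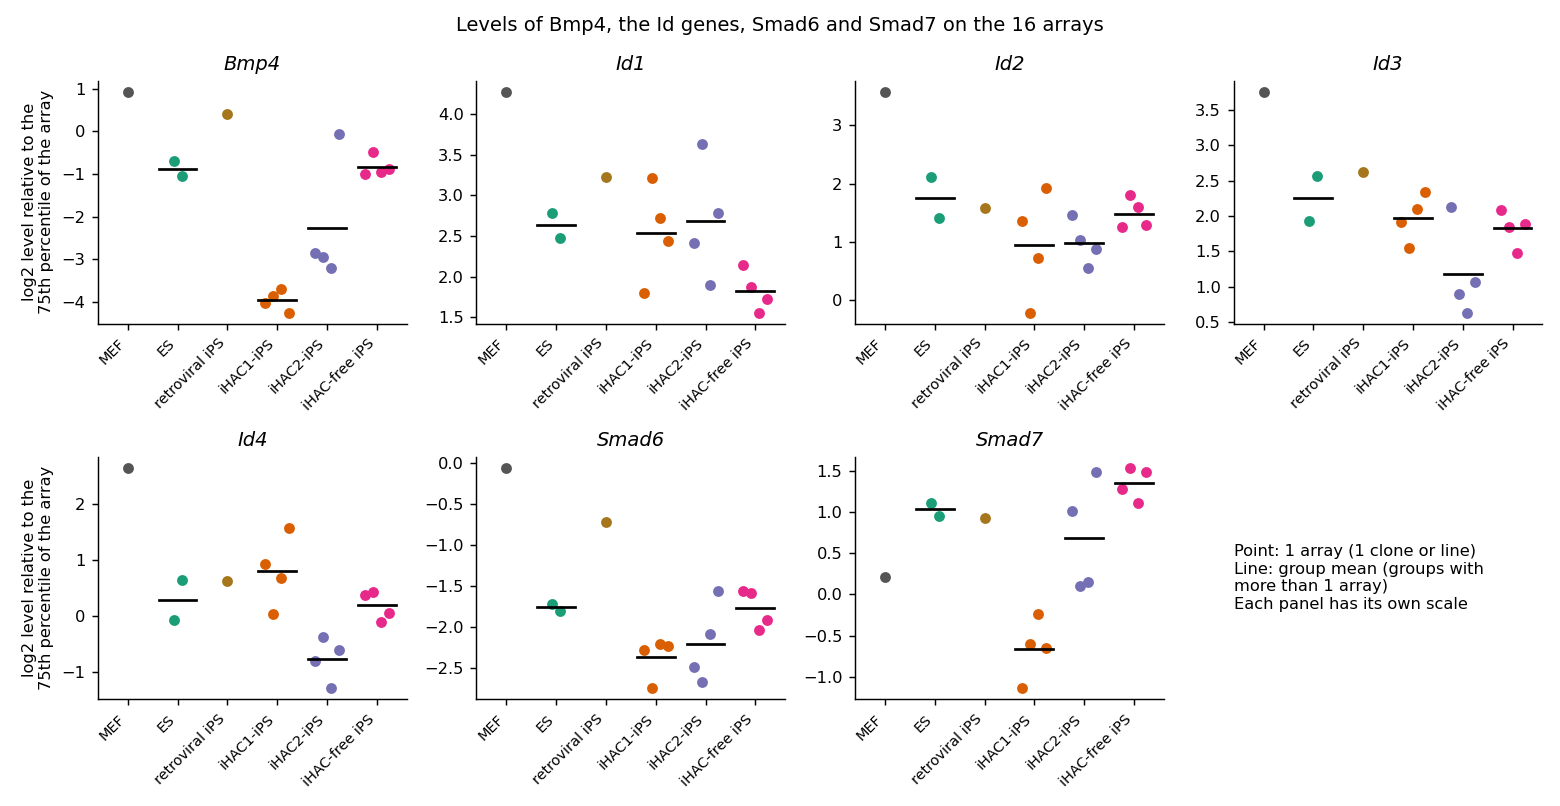
Log2 levels of the 7 genes on the 16 arrays, 1 panel per gene, by group, in log2 units relative to the 75th percentile of the array, with each point 1 array and each line the mean of a group of more than 1. Bmp4 lies between -4.25 and -3.70 in the iHAC1-iPS clones, below all other arrays, and at -0.06 in the iHAC2-iPS clone 2-N, while MEFs are highest in all genes but Smad7.

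Smad7, the inhibitory Smad that blocks both BMP and TGF-beta receptors, was also low in all iHAC1-iPS clones. Its probe (A_51_P403636) lies on chromosome 18. The log2 level was 1.11 in B6ES, 0.95 in TT2, 0.93 in 20D17 and 0.21 in MEFs. In the iHAC1-iPS clones it was -1.14 in 1-A3, -0.61 in 1-B, -0.24 in 1-C3 and -0.65 in 1-D6. These 4 were the only arrays below 0. In the iHAC2-iPS clones it was 1.01 in 2-B1, 0.10 in 2-C6, 0.14 in 2-E and 1.48 in 2-N, and in the iHAC-free lines it was 1.28 in F-B1, 1.53 in F-C5, 1.11 in F-E4 and 1.48 in F-N7. The iHAC1-iPS clones overlapped no other group, and the MEF array lay between them and ES cells. In these clones Smad7 was 3.23-fold lower than in ES cells (log2 difference -1.69, SE 0.36, limma's adjusted p = 0.00702), 2.54-fold lower than in iHAC2-iPS cells (log2 difference -1.34, SE 0.29, limma's adjusted p = 0.00465) and 4.02-fold lower than in iHAC-free lines (log2 difference -2.01, SE 0.29, limma's adjusted p = 0.000393). The first of these was not called without B6ES (log2 difference -1.61, limma's adjusted p = 0.0737) or with the slide as a block (log2 difference -1.68, limma's adjusted p = 0.051), and the other calls held in every alternative that was run. In iHAC2-iPS cells Smad7 did not pass the test against ES cells (log2 difference -0.35, 95% interval -1.13 to 0.44) or iHAC-free lines (log2 difference -0.66, limma's adjusted p = 0.255).

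Smad6, the inhibitor that acts chiefly on BMP receptors, did not pass the test in any comparison. Its probe (A_51_P427926, chromosome 9 of mm9, 63801378 to 63801437) gave a log2 level of -1.72 in B6ES, -1.80 in TT2, -0.72 in 20D17 and -0.06 in MEFs. It was -2.27 in 1-A3, -2.75 in 1-B, -2.21 in 1-C3 and -2.23 in 1-D6, all iHAC1-iPS clones. All 4 lay below both ES lines and below all iHAC-free lines, which ranged from -2.03 to -1.56. The log2 difference was -0.60 from ES cells (SE 0.28, limma's adjusted p = 0.151) and -0.59 from iHAC-free lines (SE 0.23, limma's adjusted p = 0.0618). Among iHAC2-iPS clones Smad6 was -2.48 in 2-B1, -2.67 in 2-C6, -2.08 in 2-E and -1.57 in 2-N, and again 2-N was the highest of the 4. The promoter with the GTCTAGAC palindrome, searched for only after that window had been read, is that of this gene.

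Id1 had the widest clone-to-clone spread of the Id genes in iHAC2-iPS cells and no called difference. The log2 level of its brighter probe (A_52_P533809, chromosome 2 of mm9, 152563046 to 152563105) was 4.28 in MEFs, 3.22 in 20D17, 2.78 in B6ES and 2.48 in TT2. For iHAC1-iPS clones the level was 1.80 in 1-A3, 3.22 in 1-B, 2.72 in 1-C3 and 2.43 in 1-D6. The iHAC2-iPS clones had 2.41 in 2-B1, 3.63 in 2-C6, 1.89 in 2-E and 2.78 in 2-N. Both groups of clones spread around the ES lines on either side. In the iHAC-free lines it was 2.14 in F-B1, 1.87 in F-C5, 1.56 in F-E4 and 1.73 in F-N7, all below both ES lines. The difference between iHAC-free iPS and ES cells did not pass the test (log2 difference -0.81, SE 0.44, limma's adjusted p = 0.317), nor did that of iHAC2-iPS clones from iHAC-free lines (log2 difference 0.86, SE 0.36, limma's adjusted p = 0.230). Each iHAC-free line was lower in Id1 than its own parental clone, by between 0.27 and 1.77 on the log2 scale. Between iHAC1-iPS and ES cells the log2 difference was -0.09 with a 95% interval from -1.04 to 0.86, and did not pass the test, in the same clones whose Bmp4 was called lower. The other probe of Id1 (A_51_P385786), which overlaps the former, followed it closely (r = 0.996 over 16 arrays).

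Id2 also had no called difference. Its brighter probe (A_52_P240542, chromosome 12 of mm9, 25778904 to 25778963) gave a log2 level of 3.57 in MEFs, 2.10 in B6ES, 1.40 in TT2 and 1.58 in 20D17. Among iHAC1-iPS clones it was 1.36 in 1-A3, -0.22 in 1-B, 0.73 in 1-C3 and 1.92 in 1-D6, the widest range within a group of any Id gene, and the 2 clones lowest in Id2 were the 2 highest in Id1. Among iHAC2-iPS clones it ranged from 0.55 in 2-E to 1.45 in 2-B1 and in the iHAC-free lines from 1.25 in F-B1 to 1.80 in F-C5. These ranges overlap. Id2 differed from ES cells by -0.81 in iHAC1-iPS cells (log2, SE 0.47, limma's adjusted p = 0.250) and by -0.78 in iHAC2-iPS cells (SE 0.47, limma's adjusted p = 0.278). On slide 2 the iHAC1-iPS difference, from 1-D6 alone, was 0.17. The other Id2 probe (A_51_P219074) gave log2 differences of -0.36 and -0.27 for the same comparisons.

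Id3 was lower in 3 of the 4 iHAC2-iPS clones than on all other arrays. The log2 level of its probe (A_51_P380178, chromosome 4 of mm9, 135700075 to 135700249) was 3.75 in MEFs, 2.61 in 20D17, 1.93 in B6ES and 2.57 in TT2. In the iHAC2-iPS clones it was 2.13 in 2-B1, 0.90 in 2-C6, 0.63 in 2-E and 1.06 in 2-N. Here 2-B1, and not 2-N, stood with the other groups. In the iHAC1-iPS clones the level was 1.91 in 1-A3, 1.55 in 1-B, 2.10 in 1-C3 and 2.33 in 1-D6, and in the iHAC-free lines it was 2.09 in F-B1, 1.84 in F-C5, 1.48 in F-E4 and 1.89 in F-N7. The log2 difference between iHAC2-iPS and ES cells was -1.07 (SE 0.37, limma's adjusted p = 0.0777). It was called without 2-B1, where it was -1.39 (limma's adjusted p = 0.0187), and also with no filter on dim probes (limma's adjusted p = 0.0468). With the slide as a random block it was called as well (log2 difference -1.12, limma's adjusted p = 0.0497), but these groups share no slide, so that setting cannot part slide from group. Between iHAC1-iPS and iHAC2-iPS cells the log2 difference was 0.79 (SE 0.30, limma's adjusted p = 0.0571), and without 2-B1 it was 1.11 (limma's adjusted p = 0.00494). Clone 2-B1 is singled out here by its own Id3 level, so the p-values without it are no separate support. In iHAC1-iPS cells, whose Bmp4 was lowest, Id3 differed from ES cells by -0.28 with a 95% interval from -1.08 to 0.53.

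Id4 was the Id gene with a called difference, and it was higher in iHAC1-iPS than in iHAC2-iPS cells. The log2 level of its brighter probe (A_52_P449871, chromosome 13 of mm9, 48358668 to 48358727) was 2.64 in MEFs, 0.63 in 20D17, -0.08 in B6ES and 0.65 in TT2. In the iHAC1-iPS clones it was 0.92 in 1-A3, 0.03 in 1-B, 0.67 in 1-C3 and 1.57 in 1-D6. In the iHAC2-iPS clones it was -0.80 in 2-B1, -0.37 in 2-C6, -1.28 in 2-E and -0.60 in 2-N, the 4 lowest of all 16 arrays for this probe. The iHAC-free lines derived from them lay above all 4, at 0.38 in F-B1, 0.43 in F-C5, -0.11 in F-E4 and 0.06 in F-N7. Id4 was 2.95-fold higher in iHAC1-iPS than in iHAC2-iPS cells (log2 difference 1.56, SE 0.31, limma's adjusted p = 0.00276), and this call held in every alternative that was run. The log2 difference of iHAC2-iPS cells was -1.05 from ES cells (SE 0.38, limma's adjusted p = 0.0878) and -0.95 from iHAC-free lines (SE 0.31, limma's adjusted p = 0.154). Neither passed the test, and for this probe the groups did not overlap in either. With the slide as a random block the former was called (log2 difference -1.15, limma's adjusted p = 0.0377). These groups share no slide, so that setting cannot part slide from group. It also raised the share of all probes called from 6.73% to 10.2%, and nothing is read from the call.

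The other Id4 probe (A_51_P494430, chromosome 13 of mm9, 48359180 to 48359239) gave larger differences for iHAC1-iPS cells. It was 4.67-fold higher in iHAC1-iPS than in iHAC2-iPS cells (log2 difference 2.22, SE 0.35, limma's adjusted p = 0.000802). It was also called higher than in iHAC-free lines, at a log2 difference of 1.21 (SE 0.35, limma's adjusted p = 0.0184), where the brighter probe gave 0.61 (limma's adjusted p = 0.143). Against ES cells it gave 1.30 (limma's adjusted p = 0.051) and the brighter probe 0.51 (limma's adjusted p = 0.369). In iHAC2-iPS clones the other probe did overlap with ES cells and with iHAC-free lines, since 2-C6, at -2.29, lay above B6ES, at -2.33, and just above F-E4. The probes agreed in the sign of the differences of iHAC1-iPS cells and disagreed on whether Id4 passed the test against iHAC-free lines. The fibroblast genes had a mean of 2.33 to 3.29 in the iHAC1-iPS clones and 3.65 in MEFs, where Id4 was highest. Between iHAC1-iPS and iHAC2-iPS cells 7 of the 20 were called higher, beside 8.64% of all probes. In iHAC1-iPS cells all 20 lay above ES cells and 16 above iHAC-free lines, as did Id4. Between iHAC2-iPS and iHAC-free cells 0 of the 20 lay above 0, and Id4 was lower too. In iHAC2-iPS against ES cells 16 of the 20 lay above 0, while Id4 was at -1.05 by the brighter probe. Between iHAC-free iPS and ES cells all 20 lay above 0, with Id4 at -0.10 by that probe. The part of the fibroblast genes in the Id4 difference was not tested.

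Counted together, 2 of the 7 genes, Bmp4 and Smad7, were called in iHAC1-iPS against ES cells, both lower, where 14.3% of all 31415 probes tested were called, 7.41% lower and 6.86% higher. Against iHAC2-iPS cells 3 were called, Bmp4 and Smad7 lower and Id4 higher, beside 20.0% of all probes, of which 11.3% were lower and 8.64% higher. Against iHAC-free lines Bmp4 and Smad7 were called lower, beside 20.1% of all probes, 11.2% lower and 8.83% higher. With 7 genes the shares called cannot be set apart from these backgrounds, and nothing more is read from the counts. None of the 7 was called between iHAC2-iPS and ES cells, where 6.73% of all probes were called (3.47% higher, 3.26% lower), with 2 genes at an unadjusted p under 0.05 in limma. Likewise limma called 0 between iHAC-free iPS and ES cells, where 0.366% of all probes were called (0.172% higher, 0.194% lower), and no gene had an unadjusted p under 0.05. For iHAC2-iPS clones against their iHAC-free lines it called 0, beside 0.761% of all probes (0.216% higher, 0.544% lower), and 4 genes had an unadjusted p under 0.05. The median log2 difference over the 7 genes in this last comparison was -0.64, against 0.05 over all probes and -0.12 over the 61 pathway genes tested. Id1, 1 of the 4 genes, went the other way at 0.86. The share of all probes under the unadjusted threshold is not given here, so nothing is read from these numbers of genes or from the median.

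**Figure D2:**
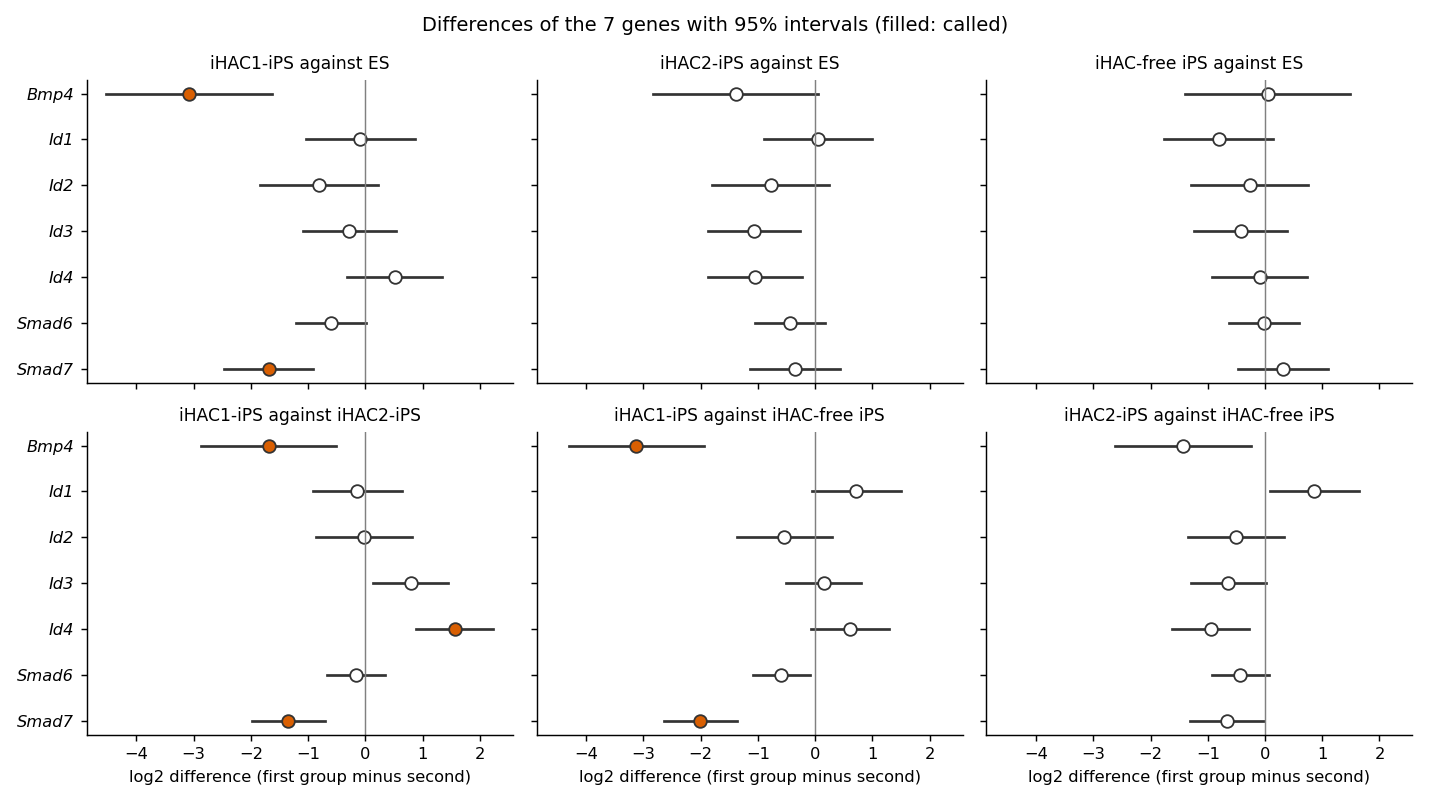
Log2 differences of the 7 genes in the 6 comparisons, as the first group minus the second, with points the estimates of limma, lines their 95% intervals and filled points the called genes. Bmp4 and Smad7 are called in the 3 comparisons of iHAC1-iPS cells, with Bmp4 at -3.08 against ES cells, and Id4 is called at 1.56 against iHAC2-iPS cells.

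The iHAC-free lines could be compared with their parental clones pair by pair, since each came from a known iHAC2-iPS clone. These lines were also sorted for absence of the vector's fluorescent marker EGFP and subcloned. Loss of iHAC2 therefore cannot be told apart from these steps. Bmp4 was higher in the iHAC-free line than in its parental clone in 3 of 4 pairs, by 1.86 for F-B1, 2.47 for F-C5 and 2.25 for F-E4 on the log2 scale. In the pair of 2-N and F-N7 the iHAC2-iPS clone was higher by 0.83. The 4 iHAC-free lines thus lay within 0.51 of each other, where their parental clones spanned 3.14. Id4 was higher in the iHAC-free line in all 4 pairs, with log2 differences of iHAC2-iPS minus iHAC-free cells between -1.18 and -0.66. Id1 was the only one of the 7 that was lower in the iHAC-free line in all 4. On slide 3, which held the pairs of 2-B1 and 2-N, the mean log2 difference of Bmp4 was -0.51, and on slide 4, with those of 2-C6 and 2-E, it was -2.36. For Id4 the values were -0.92 and -0.98, and for Id1 they were 0.66 and 1.05. Blocking on the line of origin left the number of the 7 genes called by limma at 0.

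**Figure D3:**
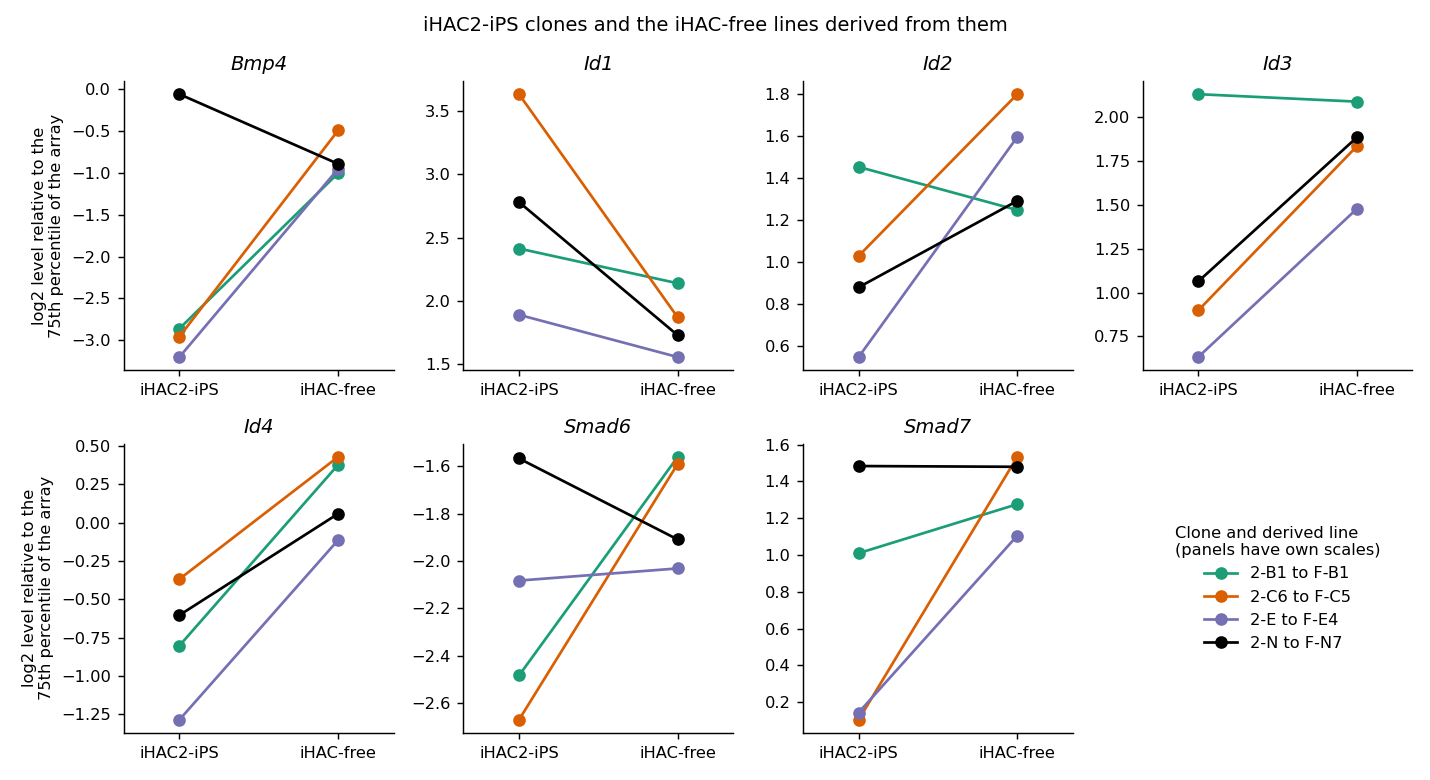
Log2 levels of the 7 genes in each iHAC2-iPS clone and in the iHAC-free line derived from it, in log2 units relative to the 75th percentile of the array, with 1 line per pair. In all 4 pairs Id4 is higher and Id1 lower in the iHAC-free line, while Bmp4 is at -0.06 in 2-N and between -3.20 and -2.86 in the other clones.

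Across the 16 arrays the levels of Bmp4 moved with those of Smad6 (Pearson's r = 0.83) and Smad7 (r = 0.76). Without the MEF array these were 0.82 and 0.89. Among the Id genes Id3 and Id4 were most alike (r = 0.84, and 0.72 without MEFs). Between Bmp4 and the Id genes r lay between 0.19 and 0.56, and without MEFs between -0.14 and 0.40. Id1 had no correlation above 0 with any of the other 6 genes once the MEF array was left out. These values describe 16 arrays that share slides, parental clones and group differences, and no test was made of them. By the same measure, over 4982 genes well above background on all arrays, the 3 genes most like Bmp4 were Traf1 (r = 0.95), S1pr2 (r = 0.94) and Mylpf (r = 0.93). Those most like Smad7 were Rbpj, Drc1 and Hsf5, with r between 0.96 and 0.97. Id3 was most like Fgf7, 3110039M20Rik and Lpar1 (r from 0.93 to 0.94), and Id4 was most like Ccdc109a, Plxna2 and Msrb3 (r from 0.93 to 0.94). The genes nearest to Id1 (Smim3, Lmna and Epha4), Id2 (Myh8, Hoxd4 and Synpo2) and Smad6 (Dok4, Tinagl1 and Irf9) had r between 0.82 and 0.91, and between 0.73 and 0.82 without MEFs.

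**Figure D4:**
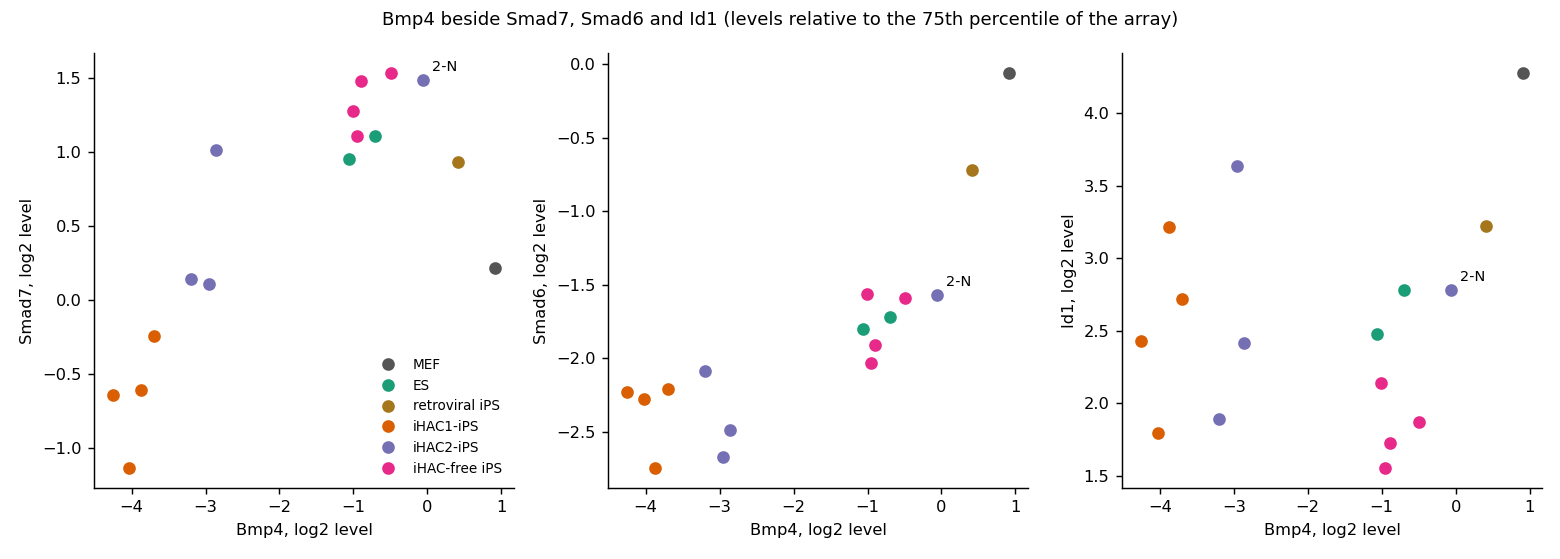
Log2 level of Bmp4 (horizontal axis) beside the log2 levels of Smad7, Smad6 and Id1 (vertical axes), with 1 point per array, coloured by group, and the iHAC2-iPS clone 2-N labelled. The iHAC1-iPS clones are lowest in both Bmp4 and Smad7, while MEFs have the highest Bmp4 beside a Smad7 of 0.21, 2-B1 has a Bmp4 of -2.86 beside a Smad7 of 1.01, and 2-E a Bmp4 of -3.20 beside a Smad6 of -2.08.

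Other genes of the pathway were described from a list of 63, of which 61 were tested and Bmp10 and Bmp15 were not well above background on any array. In iHAC1-iPS against ES cells 10 were called, 8 higher and 2 lower, or 16.4% of those tested beside 14.3% of all probes. The median log2 difference of the list was 0.21, against 0.01 over all probes. Against iHAC2-iPS cells 20 were called (14 higher, 6 lower), or 32.8% beside 20.0% of all probes, and against iHAC-free lines 16 (8 higher, 8 lower), or 26.2% beside 20.1%. Between iHAC2-iPS and ES cells 5 were called (2 higher, 3 lower), or 8.2% beside 6.73%, and 1 each, or 1.64% beside 0.366% and 0.761%, between iHAC-free iPS and ES cells and between iHAC2-iPS clones and their iHAC-free lines. These shares were not tested against each other, and none is read as particular to the list. Of the 10 genes called between iHAC1-iPS and ES cells, those other than Fstl1 and Smad5 were not called without B6ES, and those other than Acvr1, Fstl1 and Tcf12 were not called with the slide as a block.

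Of 12 other ligands tested, 1 was called lower in iHAC1-iPS clones than in ES cells, 3 than in iHAC2-iPS cells and 5 than in iHAC-free lines, and none of the 12 was called higher in these comparisons. Of all probes 7.41%, 11.3% and 11.2% were called lower, and 6.86%, 8.64% and 8.83% higher. The 3 include Gdf2 and the 5 include Bmp2, both near background on many of these arrays. With 12 genes nothing is read from these counts. Bmp8b was lower than in ES cells (log2 difference -3.30, SE 0.88, limma's adjusted p = 0.0207), than in iHAC2-iPS cells (log2 difference -5.30, limma's adjusted p = 0.000347) and than in iHAC-free lines (log2 difference -3.82, limma's adjusted p = 0.00174). It was well above background in 2 of the 4 iHAC1-iPS clones, whose levels ran from -7.29 to -2.68. Against ES cells Bmp8b was not called without either ES array or with only the compared groups (limma's adjusted p = 0.117). Bmp7 was lower in iHAC1-iPS than in iHAC2-iPS cells (log2 difference -4.32, limma's adjusted p = 0.0041) and iHAC-free lines (log2 difference -4.48, limma's adjusted p = 0.00288). Its iHAC1-iPS levels spanned 5.25, and against ES cells it did not pass the test (log2 difference -2.40, limma's adjusted p = 0.153). Bmp6 was the 1 pathway gene called between iHAC-free iPS and ES cells, at a log2 difference of 1.56 (limma's adjusted p = 0.0339). That call was lost on leaving out 5 of the 6 arrays in turn, all but F-E4 (limma's adjusted p up to 0.119), and in 3 of 8 other settings, where the log2 difference was as low as 0.35. Bmp6 was also lower in iHAC1-iPS cells than in iHAC-free lines (log2 difference -1.55, limma's adjusted p = 0.000186). Bmp2 was called lower in iHAC1-iPS cells than in iHAC-free lines (log2 difference -1.87, limma's adjusted p = 0.0104). Its signal exceeded background clearly in 1 of the 4 clones and 2 of the 4 lines, and with normexp correction the log2 difference was -0.06 (limma's adjusted p = 0.705). Gdf2, counted above as called higher in iHAC2-iPS clones than in ES and iHAC1-iPS cells, was well above background on 1 iHAC2-iPS array and on no ES or iHAC1-iPS array, so that no difference is given for it.

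Of 11 receptors and co-receptors, 3 were called higher and 1 lower in iHAC1-iPS clones than in ES cells, 4 and 2 against iHAC2-iPS cells, and 3 and 2 against iHAC-free lines. The shares of all probes called higher were 6.86%, 8.64% and 8.83%, and lower 7.41%, 11.3% and 11.2%. These counts were not tested against those shares. Acvr1, a type I receptor, was higher in iHAC1-iPS clones than in ES cells (log2 difference 2.09, SE 0.45, limma's adjusted p = 0.0074), iHAC2-iPS cells (log2 difference 2.66, limma's adjusted p = 0.000377) and iHAC-free lines (log2 difference 2.32, limma's adjusted p = 0.00061). Bmpr2, the type II receptor, was higher in the same 3 comparisons, by 1.20 on the log2 scale (limma's adjusted p = 0.00471), 1.21 (limma's adjusted p = 0.000835) and 1.39 (limma's adjusted p = 0.000291). Against ES cells neither was called without B6ES (limma's adjusted p = 0.0917 for Acvr1 and 0.0514 for Bmpr2), and Bmpr2 was not called with the slide as a block (limma's adjusted p = 0.0503). The type I receptor Bmpr1b was well above background on all 4 iHAC1-iPS arrays and on no iHAC2-iPS array. It was called higher in the former (limma's adjusted p = 0.00172 for the fitted difference). A lower bound set from the background level, which was not tested, was 1.49-fold. Against iHAC-free lines, with 1 of 4 arrays well above background, its log2 difference was 2.00 (limma's adjusted p = 0.005). With normexp correction the Bmpr1b differences were under 2-fold, at 0.50 and 0.73 on the log2 scale. Of the co-receptors, Rgma was higher than in ES cells (log2 difference 2.15, limma's adjusted p = 0.0233) and iHAC2-iPS cells (log2 difference 1.82, limma's adjusted p = 0.012). The former call was lost without B6ES (log2 difference 1.33, limma's adjusted p = 0.288), without 1-A3 or 1-D6, with only the compared groups and with the slide as a block. Eng, the co-receptor endoglin, was lower in all 3 comparisons, by between -1.99 and -1.08 on the log2 scale (limma's adjusted p from 5.81e-05 to 0.00821). Against ES cells it was not called without B6ES (limma's adjusted p = 0.093), with the slide as a block (limma's adjusted p = 0.0945) or with normexp correction (log2 difference -0.75). Hjv, another co-receptor, was lower than in iHAC2-iPS cells (log2 difference -2.47, limma's adjusted p = 0.0104) and iHAC-free lines (log2 difference -2.34, limma's adjusted p = 0.0127), and with normexp correction both were under 2-fold.

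Smad5, one of the Smads that carry the signal, was higher in iHAC1-iPS cells in the 3 comparisons, with log2 differences of 1.41 from ES cells (limma's adjusted p = 0.00336), 1.41 from iHAC2-iPS cells (limma's adjusted p = 0.000616) and 1.54 from iHAC-free lines (limma's adjusted p = 0.000281). Smad1, Smad4 and Smad9 were not called in any comparison. Against ES cells Smad5 did not pass with the slide as a block (limma's adjusted p = 0.057), and with the mean of its probes its log2 difference was 0.97, under 2-fold. Of 16 secreted modulators, 2 were called higher than in ES cells, 4 than in iHAC2-iPS cells and 1 than in iHAC-free lines. The shares of all probes called higher were 6.86%, 8.64% and 8.83%. Fstl1, a follistatin-like protein, was higher in the 3 comparisons, by 2.35 against ES cells on the log2 scale (limma's adjusted p = 0.00186), and without 2-N its difference from iHAC2-iPS cells was just under 2-fold (log2 difference 0.99). Bmp1, a protease that cleaves the BMP antagonist chordin and is no ligand, was higher than in ES cells (log2 difference 1.55, limma's adjusted p = 0.0241). This call was lost without B6ES (log2 difference 0.95, limma's adjusted p = 0.295), without 1-A3 or 1-D6, with only the compared groups and with the slide as a block. Bmper (log2 difference 1.99, limma's adjusted p = 0.00484), Fst (log2 difference 1.93, limma's adjusted p = 0.0272) and Chrdl1 (limma's adjusted p = 0.000616 for the fitted difference) were higher in iHAC1-iPS than in iHAC2-iPS cells. For Chrdl1 a lower bound set from the background level, which was not tested, was 1.27-fold. The call of Fst was lost on leaving out 5 of the 8 arrays in turn, namely 1-A3, 1-C3, 1-D6, 2-E and 2-N (limma's adjusted p up to 0.0719). Chrdl1 was not well above background on any iHAC2-iPS array, and with normexp correction its difference was under 2-fold. Its call as lower there than in ES cells (limma's adjusted p = 0.0194) was lost without either ES array and in 3 of 7 other settings. Smurf1, a ubiquitin ligase that turns over Smads, was higher in iHAC2-iPS clones than in ES lines (log2 difference 1.32, limma's adjusted p = 0.0122), a call lost without either ES array, with only the compared groups and with the mean of its probes (log2 difference 0.56). With only the compared groups 0.0637% of all probes were called there, beside 6.73% with all arrays. That loss is not read as particular to Smurf1.

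Of 8 other target genes, 1 was called higher in iHAC1-iPS clones than in ES cells, 4 than in iHAC2-iPS cells, and against iHAC-free lines 2 were higher and 1 lower. The shares of all probes called higher were 6.86%, 8.64% and 8.83%, and 11.2% were called lower against iHAC-free lines. The homeobox gene Msx1 was higher in iHAC1-iPS cells in all 3 comparisons, by 1.86 against ES cells on the log2 scale (limma's adjusted p = 0.00501). Against ES cells it was not called without B6ES (limma's adjusted p = 0.0845) or with the slide as a block (limma's adjusted p = 0.113). Against iHAC2-iPS cells Msx2 (log2 difference 1.43, limma's adjusted p = 0.0263), Hey1 (log2 difference 1.77, limma's adjusted p = 0.0067) and Gata3 (log2 difference 2.07, limma's adjusted p = 0.000214) were higher too. The call of Msx2 was lost without 1-A3, 1-D6, 2-C6 or 2-E and with only the compared groups. Gata3 was the 1 pathway gene called between iHAC2-iPS clones and iHAC-free lines, at a log2 difference of -1.36 (limma's adjusted p = 0.0296). That call was lost on blocking by line of origin (limma's adjusted p = 0.0671) or by slide (limma's adjusted p = 0.0655), with only the compared groups, with normexp correction (log2 difference -0.69), and without 2-E or any 1 of the 4 iHAC-free lines. In iHAC2-iPS against ES cells Gata3 had a log2 difference of -1.76 (limma's adjusted p = 0.00879), lost without B6ES (limma's adjusted p = 0.0921) and with only the compared groups. Gata2 had -2.01 (limma's adjusted p = 0.0364), which was lost without B6ES (limma's adjusted p = 0.239), TT2, 2-B1 or 2-E and with only the compared groups. That last setting called 0.0637% of all probes between iHAC2-iPS and ES cells, beside 6.73% with all arrays. Its losses there are not read as particular to Gata2 or Gata3. Tbx3 was lower in iHAC1-iPS cells than in iHAC-free lines (log2 difference -2.50, limma's adjusted p = 0.00446). Tcf12, an E protein to which Id proteins bind, was higher in iHAC1-iPS cells in the 3 comparisons, with log2 differences between 1.40 and 1.80 (limma's adjusted p from 0.00018 to 0.00353). Against ES cells it was not called without B6ES (limma's adjusted p = 0.058) or with the mean of its probes (log2 difference 0.86, limma's adjusted p = 0.0566). Hey1, which was also higher than in iHAC-free lines (log2 difference 1.44, limma's adjusted p = 0.0175), was not called there without 1-D6. Each of these 3 comparisons also held the difference in pluripotency and fibroblast genes given above, whose part in the pathway genes was not tested.

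**Figure D5:**
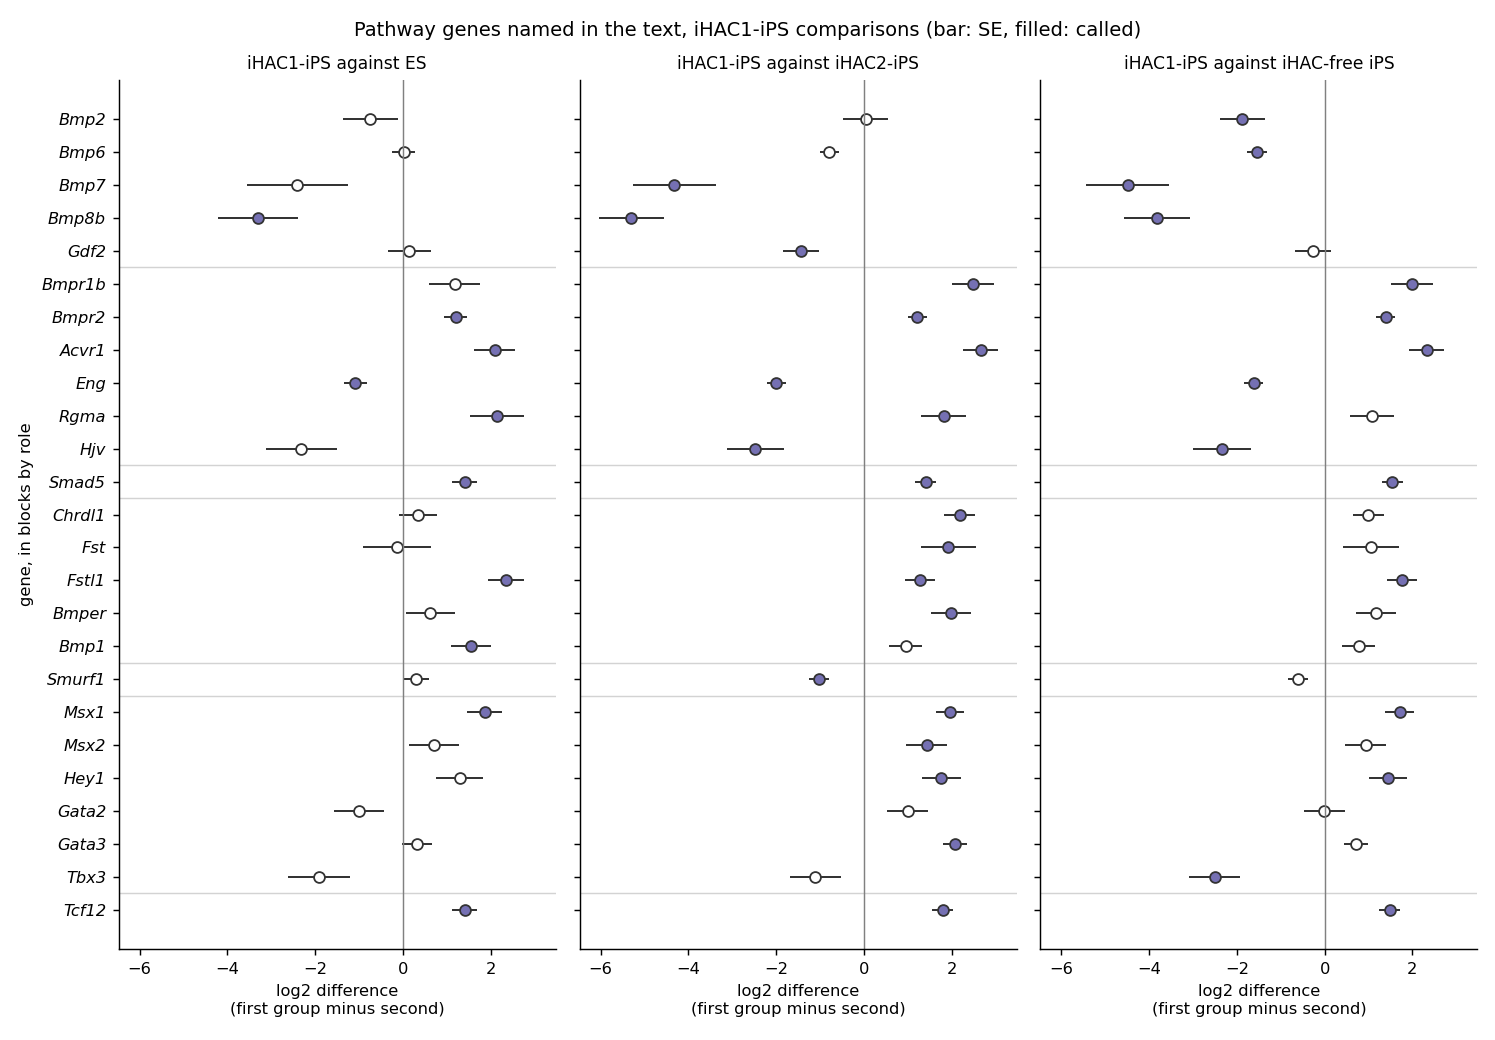
Log2 differences of 25 pathway genes in the 3 comparisons of iHAC1-iPS cells, as the first group minus the second, in blocks by role (ligands, receptors and co-receptors, Smad5, secreted modulators, Smurf1, other targets, Tcf12), with bars the SE and filled points the called genes. The called ligands lie below 0, down to -5.30 for Bmp8b, and Acvr1, Bmpr2, Smad5, Fstl1, Msx1 and Tcf12 lie above 0 and are called in all 3. All points are fitted differences. This includes Gdf2, for which the text gives none, and Bmpr1b and Chrdl1 against iHAC2-iPS cells, for which it gives lower bounds.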

How the data were processed

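The authors labelled RNA of 16 samples with Cy3, hybridized each to 1 Agilent Whole Mouse Genome array and extracted spots with Feature Extraction (10.7.1.1 for 8 arrays and 10.7.3.1 for the 8 on slides 3 and 4). The deposited intensity of each spot is background-subtracted and not scaled between arrays. The authors' deposited value table holds log2 values normalized in GeneSpring GX 11 and served as an alternative. Against scanner values centred on each probe's median its columns had slopes of 0.9988 to 1.0009 and correlations of at least 0.9997, so that scale, centring and direction are settled, and their medians lay between -0.3254 and 0.2793.

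Here control and outlier spots were removed, spots of a probe were averaged, and log2 signals were set relative to each array's 75th percentile. Probes well above background on at least 1 array, 31415, were tested with limma 3.58.1 (R 4.3.3), in 1 fit of 6 groups, with Benjamini-Hochberg adjustment over all of them. The steps were tested on simulated data. No spot was saturated, and 2 to 4 arrays per group limit the precision. MEFs and 20D17 have 1 array each and no test. The files place the probes on build mm9.

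The genes and lists were chosen with earlier results of these data known. A gene stood for its probe of highest mean level, its other probes being given beside it. Pathway genes were named when called in at least 1 comparison, up to 25 by size of difference, and for each member the 3 genes of highest Pearson's r were named among those with an SD of at least 0.5. The iHAC-free lines come from the same clones as the iHAC2-iPS cells, by the study's list of parental clones, which pairs them, and in deviations from group means the 4 pairs correlated between -0.219 and 0.08, against -0.105 to 0.216 for the 12 other combinations. Alternatives were the slide as a block (random where groups share no slide), only the compared groups, normexp correction with an offset of 50, quantile normalization, the authors' values, a filter on dim probes that was strict or absent, the mean of a gene's probes, leaving out each array, and the line of origin as a replicate block.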

Additional observations from a re-analysis of the deposited data

Results flagged for a closer look

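Within groups of 4 arrays, 1 array lay far from the others in 2 of the 30 sets of values looked at for the 10 probes, where about 1.5 would be flagged by chance. Bmp4 was at a log2 level of -0.0587 in the iHAC2-iPS clone 2-N, and the nearest other clone, 2-B1, was at -2.86, so that the gap took 0.892 of the range of the group. Smad6 was at -2.75 in the iHAC1-iPS clone 1-B, and the nearest other clone, 1-A3, was at -2.27, a gap of 0.875 of the range.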

How the results depend on the processing

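Of 637 differences of the 7 genes recomputed under the alternatives, 599 kept their direction and their side of the threshold, 9 lost their call, 7 gained one and 22, none of them called, changed sign. For iHAC1-iPS against ES cells the number of the 7 genes called, 2, fell to 0 with the slide as a block and was 0 to 2 with single arrays left out (0 without B6ES). Blocking on slide, where this comparison rests on 1-D6, also lowered the share of all probes called from 14.3% to 7.76%. For iHAC2-iPS against ES cells the number, 0, was 1 with no filter (Id3) and 2 with the slide as a random block (Id3 and Id4), which cannot part slide from group here. These settings called 10.8% and 10.2% of all probes, beside 6.73%. The number of the 7 genes called was 0 to 1 with arrays left out (1 without 2-B1, 1 without 2-N). For iHAC2-iPS clones against iHAC-free lines, 0, it was 0 to 1 (1 without 2-N), and with the replicate block of line of origin it was 0. Of the pathway list, the 10 called between iHAC1-iPS and ES cells became 4 with the slide as a block and 2 to 14 with arrays left out (2 without B6ES). The 5 between iHAC2-iPS and ES cells became 0 with only the compared groups, where 0.0637% of all probes were called, beside 6.73% with all arrays. They became 2 with the mean of probes and 0 to 10 with arrays left out (0 without B6ES, 1 without TT2, 3 without 2-B1, 10 without 2-C6). The 1 between iHAC-free iPS and ES cells became 0 with normexp, only the compared groups or the mean of probes, 2 with quantile normalization, and 0 to 1 with arrays left out. With only the compared groups 0.0191% of all probes were called there, beside 0.366% with all arrays. The 1 between iHAC2-iPS clones and iHAC-free lines became 3 with quantile normalization, 2 with only the compared groups, 0 with the slide or the replicate block, and 0 to 2 with arrays left out. Of all probes 1.02% were called with quantile normalization, 0.325% with only the compared groups, 0.493% with the slide and 0.43% with the replicate block. The cause of these changes was not tested.

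With the slide as a block, Id2 and Id3 in iHAC1-iPS against ES cells changed sign, to 0.17 and 0.0819, and with the deposited value table Smad6 in iHAC-free iPS against ES cells did, to 0.0025. The other changes of sign came from leaving out single arrays. The log2 difference then ranged from -0.3137 to 0.1592 for Id1 and from -0.5955 to 0.0387 for Id3 between iHAC1-iPS and ES cells, and from -0.2693 to 0.3122 for Id1 between iHAC2-iPS and ES cells. Between iHAC-free iPS and ES cells it ranged from -0.1329 to 0.2232 for Bmp4, from -0.621 to 0.0812 for Id2, from -0.4591 to 0.2667 for Id4 and from -0.083 to 0.0742 for Smad6. Between iHAC1-iPS and iHAC2-iPS clones it ranged from -0.4006 to 0.181 for Id1, from -0.354 to 0.3587 for Id2 and from -0.3183 to 0.0499 for Smad6.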
